A study of Mus musculus with 5 samples.

Results

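Imprinted genes are expressed mainly or only from the allele inherited from 1 parent. Here 40 such genes were followed in the hippocampus of mice lacking *Hdac1* in neural cells. They were chosen by name, as a list of imprinted genes from 18 chromosomal domains, and all 40 are among the 23361 gene symbols measured. The samples were hippocampi of 3-month-old mice, which the study describes as male. The 2 control libraries are titled WT, and their genotype is given as *Hdac1* f/f, with both copies of *Hdac1* floxed and no Cre listed. The 3 *Hdac1* cKO mice carried the same floxed alleles together with Nestin-Cre, which is active in neural progenitors, so that neurons and astrocytes lose the gene while microglia keep it. Because Cre is listed for the cKO mice alone, the deletion and the transgene cannot be told apart. Each library was made from total RNA, and the deposited unit is FPKM, a fragment count scaled by transcript length and by library size. FPKM sum both parental alleles, so the values say how much RNA a gene gave and not which allele gave it.

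Imprinted genes lie in clusters that share a control region, a stretch of DNA methylated on either the maternal or the paternal chromosome in the germ line. The methylated copy is kept silent or active through fertilisation by DNA methylation and by proteins such as ZFP57 and TRIM28, which recruit repressive chromatin enzymes. Within a cluster, some genes are read from the maternal and others from the paternal chromosome, often with a long non-coding RNA on the opposite allele to its coding neighbours. Many of these genes are strongly expressed in the brain, where they act in growth, metabolism and behaviour, and deletions in the *Snrpn* cluster in humans underlie the Prader-Willi and Angelman syndromes. Histone deacetylation is one of the features of the silent copy at several of these clusters. By textbook assignment, 22 of the 40 genes are expressed from the paternal and 13 from the maternal allele. For the other 5 (*Grb10*, *Ddc*, *Blcap*, *Gnas* and *Inpp5f*) the expressed allele depends on the tissue or the transcript.

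The deleted gene was examined first. *Hdac1* measured 8.95 and 13.1 FPKM in control mice, against 1.95, 3.12 and 3.37 in cKO mice, so each library matched its label. The mean cKO level was 25.5% of the control mean (log2 fold change −1.66, SE 0.21, limma unadjusted p of 5.16e-05). The limma adjusted p was 0.219, and over the alternatives it ran from 0.00389 with the set of libraries described next as a block to 0.846 without cKO 2. The estimated depth was 5.14e+06 to 6.77e+06 fragments per library, and it is approximate. Control 1 and cKO 1 share steps in their low values, and control 2, cKO 2 and cKO 3 share others, which divides them into 2 sets. Each set holds both genotypes, and differences are therefore also given within each set. The 10 choroid plexus marker genes had summed levels of 167 and 6.51 FPKM in control mice, against 75.6, 609 and 25.1 FPKM in cKO mice, and the highest sum was that of cKO 2.

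In the hippocampus 29 of the 40 imprinted genes reached a mean of 1 FPKM over the 5 libraries and were tested. FPKM are scaled by length, so levels can be set side by side across genes. *Gnas*, which encodes the stimulatory G protein subunit that couples receptors to adenylate cyclase, was the most abundant, at 557 to 694 FPKM across the libraries. *Snrpn*, which encodes the neuronal splicing protein SmN, followed at 298 to 383 FPKM. Its level is uncertain, because how fragments were split between it and *Snurf*, read from the same transcript, is not known. *Nnat*, which encodes the small membrane proteolipid neuronatin, lay at 281 to 316 FPKM. These last 2 ranges overlap, and their order is not fixed by these libraries. A further 3 genes had means above 100 FPKM, namely *Rian* (145 to 167 FPKM), *Nap1l5* (128 to 159.6 FPKM) and *Ndn* (128 to 163 FPKM), and their ranges overlap as well. Between 10 and 100 FPKM lay 13 genes, from *Rasgrf1* at a mean of 96.1 to *Zrsr1* at 14.6 FPKM. The remaining 10 tested genes lay between 1 and 10 FPKM, from *Mest* (8.71) to *Airn* (1.19). In the order of means, 21 of the 28 neighbouring pairs had overlapping ranges. Of the 29 genes, 19 lay above 10.9 FPKM, the median of all tested genes.

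**Figure D1:**
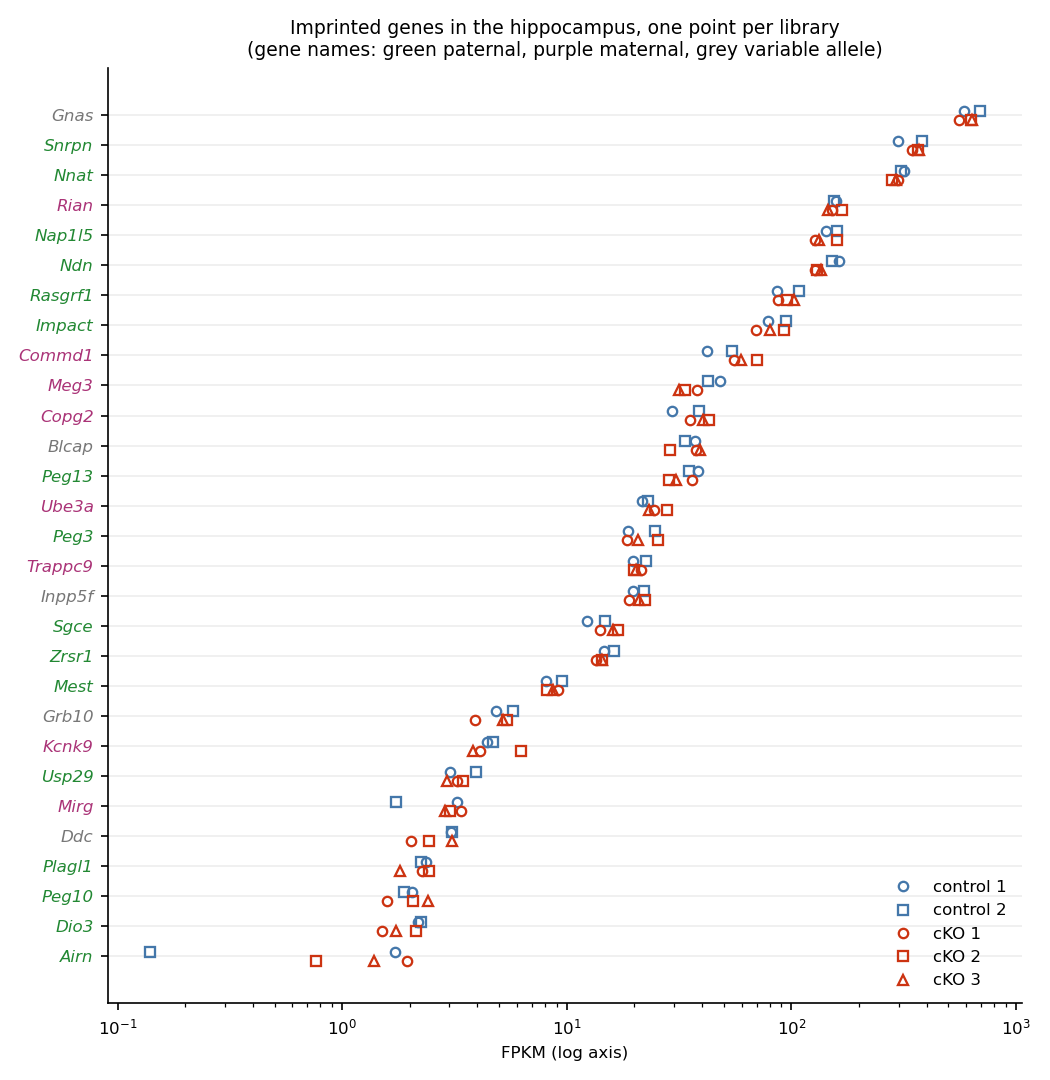
FPKM (log axis) of the 29 tested imprinted genes in each of the 5 libraries, ordered by mean level, with controls in blue, *Hdac1* cKO in red and gene names coloured by expressed allele. Levels run from a mean of 621 FPKM for *Gnas* to 1.19 FPKM for *Airn*, and the colours are interleaved for most genes.

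The other 11 genes stayed under 1 FPKM and were not tested. *Phlda2*, a growth regulator of the placenta, was listed at 0 in all 5 libraries. *H19*, a long non-coding RNA that is abundant in the fetus, was listed at 0.0617 FPKM (control 1) and 0 (control 2), and the cKO mice had 0.123, 0.223 and 0.0607 FPKM. Its highest value is about 2.7 fragments at the estimated depth, which cannot show a difference between genotypes. That highest value is in cKO 2, the library with the most choroid plexus signal, and the part of that tissue in it was not tested. *Dlk1*, a Notch-like membrane protein, measured 0.796 and 0.475 FPKM in control mice, against 0.404, 0.460 and 0.497 in cKO mice. *Kcnq1ot1*, the paternal antisense RNA of the *Kcnq1* cluster, measured 0.266 and 0.277 FPKM in control mice, against 0.429, 0.361 and 0.328 in cKO mice. For this RNA the 2 groups did not overlap, but it lies under the limit for testing. *Rtl1*, *Zim1*, *Magel2* and *Mkrn3* stayed between 0.162 and 0.736 FPKM. *Peg12*, *Asb4* and *Calcr* did not exceed 0.248 FPKM. *Calcr*, the calcitonin receptor, was listed at 0 in both controls and in cKO 3. Hypothalamic peptide genes, which mark a region where several of these genes are abundant, were also low, with a sum over 7 genes of 1.32 to 2.79 FPKM in control and 0.342 to 4.81 FPKM in cKO mice. One of them, *Ghrh*, was at 0 in every library.

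The comparison of genotypes asked whether imprinted genes differ when *Hdac1* is deleted. No tested imprinted gene passed an adjusted p of 0.05 in limma over all tested genes (0 of 29, against 0.00785% of all 12740 genes). An unadjusted p under 0.05 was reached by 3 of the 29 genes (10.3%, against 4.36% of all genes), each with an adjusted p of 0.955. *Commd1* was higher in *Hdac1* cKO (1 of 29, against 2.37% of all genes), and *Meg3* and *Ndn* were lower (2 of 29, against 1.99%). None of the 29 passed a fold of 1.5 together with an unadjusted p under 0.05 (0.659% of all genes did). With the replicate number as a block, which leaves cKO 3 without a partner and so takes it out of the estimate, the unadjusted p was under 0.05 for 5 genes (17.2%), the same 3 with *Ube3a* and *Copg2*, against 11.2% of all genes. With the set of libraries as a block it was the same 3 genes, against 9.34%. Without control 1 none of these 3 genes kept an unadjusted limma p under 0.05, and *Mirg* and *Airn* came under it. *Copg2* came under it without control 2 and *Peg13* without cKO 1. In tissue samples fewer cells of a type and less RNA per cell cannot be told apart.

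The 95% confidence interval of the log2 fold change stayed inside ±0.585, a fold of 1.5, for 24 of the 29 genes, and it did so for 82.3% of all tested genes. It crossed that bound for *Meg3*, *Mirg*, *Ddc*, *Airn* and *Commd1*. The half-width of the interval ran from 0.210 to 0.834 on the log2 scale without a block. Fold changes are those of FPKM + 1, which understates the change of the genes near 1 FPKM.

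**Figure D2:**
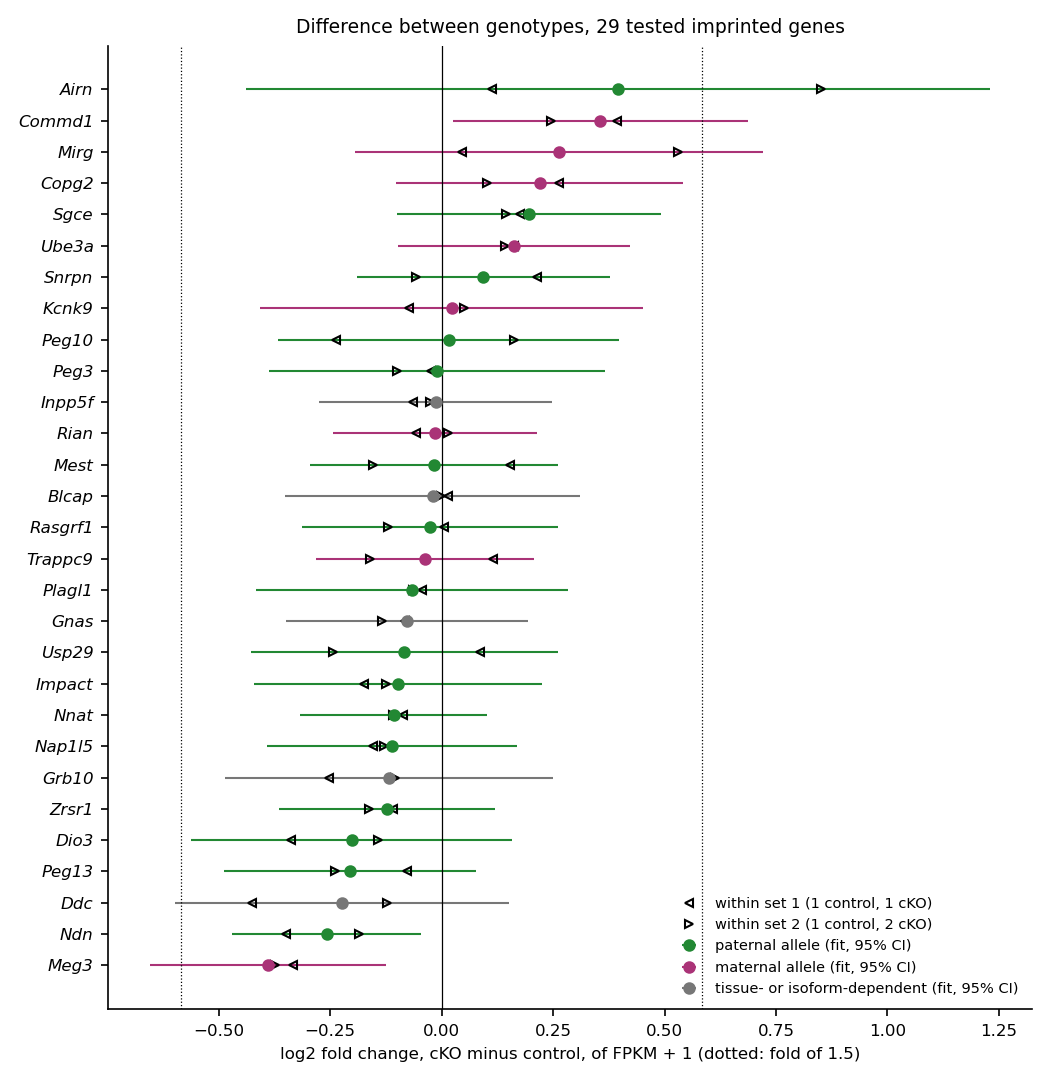
Log2 fold change of FPKM + 1 (cKO minus control) for the 29 tested imprinted genes, with the limma estimate and 95% confidence interval coloured by expressed allele and open triangles for the difference within each set of libraries. The intervals of *Meg3*, *Ndn* and *Commd1* do not include 0, and 24 of 29 intervals (82.3% over all tested genes) stay inside the dotted lines at a fold of 1.5.

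The *Dlk1*-*Dio3* cluster holds maternal non-coding RNAs and paternal coding genes. *Meg3* is the long non-coding RNA at the head of the maternal transcripts (chromosome 12, 110779211 to 110809936, plus strand, mm9). *Meg3* measured 48.1 and 42.5 FPKM in control mice, against 38.0, 33.6 and 31.5 in cKO mice. Every cKO library lay under both controls. Control mice averaged 45.3 ± 3.96 (SD, n = 2) and cKO mice 34.4 ± 3.28 (SD, n = 3), so that the cKO mean was 75.9% of the control mean. The log2 fold change was −0.39 (SE 0.12), with a limma unadjusted p of 0.00940 and an adjusted p of 0.955. It was −0.33 and −0.37 within the first and second set of libraries. Without control 1 it was −0.30 and the unadjusted limma p was 0.0771.

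*Rian*, which hosts C/D box snoRNAs and lies downstream on the same strand (110842155 to 110899919), did not follow *Meg3*. *Rian* measured 157 and 154 FPKM in control mice, against 151, 167 and 145 in cKO mice, and the groups overlapped. The ratio of *Meg3* to *Rian*, from which the scaling of the library cancels, came to 0.306 and 0.276 in control mice, against 0.251, 0.201 and 0.218 in cKO mice. The exact permutation p of that ratio was 0.2, where 0.1 is the smallest p that 2 against 3 libraries allow, and the adjusted p over the 7 within-cluster ratios was 0.467. *Mirg*, the microRNA host at the far end of the maternal transcripts, measured 3.26 and 1.73 FPKM in control mice, against 3.39, 3.03 and 2.87 in cKO mice. The 2 controls differed from each other by more than the group means did. *Dio3*, the paternally expressed deiodinase that inactivates thyroid hormone, measured 2.17 and 2.23 FPKM in control mice, against 1.51, 2.13 and 1.74 in cKO mice. Its groups did not overlap, and its log2 fold change was −0.20 (SE 0.16, limma adjusted p = 0.955). It was −0.34 and −0.14 within the sets, and −0.13 without cKO 1.

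The *Snrpn* cluster on chromosome 7 is paternally expressed except for *Ube3a*, whose maternal copy is the active one in neurons. *Ndn*, the intronless gene of the MAGE-family protein necdin, spans 69493163 to 69494814 of the plus strand. *Ndn* measured 163 and 151 FPKM in control mice, against 128, 130.5 and 136 in cKO mice. The 3 cKO values lay close together and under both controls, with a control mean of 157 ± 8.22 (SD, n = 2) and a cKO mean of 131 ± 3.93 (SD, n = 3). This was a log2 fold change of −0.26 (SE 0.09), with a limma unadjusted p of 0.0227 and an adjusted p of 0.955. It was −0.35 within the first set and −0.19 within the second. The unadjusted limma p was 0.154 without control 1 and 0.0564 without cKO 1.

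*Snrpn* measured 298 and 383 FPKM in control mice, against 346, 366 and 370 in cKO mice, all between the 2 controls. *Snurf*, which is read from the same bicistronic transcript and is listed separately, measured 41.0 and 23.6 FPKM in control mice, against 4.24, 22.2 and 22.9 in cKO mice. The sources used here do not say how fragments were split over this pair, which leaves both values uncertain. The ratio of *Ndn* to *Snrpn* came to 0.547 and 0.396 in control mice, against 0.369, 0.356 and 0.367 in cKO mice (exact permutation p = 0.1, adjusted p = 0.35 over the 7 ratios). *Ube3a*, the E3 ubiquitin ligase, measured 21.7 and 22.9 FPKM in control mice, against 24.4, 28.0 and 23.1 in cKO mice. All cKO libraries lay above the controls, cKO 3 by a small margin. The log2 fold change of *Ube3a* was 0.16 (SE 0.11, limma adjusted p = 0.955).

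In the *Zrsr1* cluster a small paternally expressed gene lies inside a maternally biased one. *Commd1*, whose protein acts in copper export and in NF-κB control, spans 22734744 to 22882382 of chromosome 11 (minus strand). *Zrsr1*, an intronless gene for a splicing factor related to U2AF, sits within it at 22873215 to 22876498, on the opposite strand. *Commd1* measured 42.2 and 54.6 FPKM in control mice, against 55.7, 70.6 and 59.7 in cKO mice. The groups did not overlap, though cKO 1 was close to control 2. Control mice averaged 48.4 ± 8.76 (SD, n = 2) and cKO mice 62.0 ± 7.70 (SD, n = 3). This was a log2 fold change of 0.36 (SE 0.14), with a limma unadjusted p of 0.0380 and an adjusted p of 0.955, and it was 0.39 and 0.25 within the sets. Without control 1 the log2 fold change was 0.17 and the unadjusted limma p 0.307, and without control 2 they were 0.54 and 0.00912. Without cKO 1 they were 0.43 and 0.0184. The unadjusted limma p was 0.120 without cKO 2, 0.0644 without cKO 3, 0.109 with no filter on FPKM and 0.119 after rescaling to a common total.

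*Zrsr1* measured 14.7 and 16.2 FPKM in control mice, against 13.5, 14.4 and 14.3 in cKO mice. It was thus lower in every cKO library, with a log2 fold change of −0.12 (SE 0.11, limma adjusted p = 0.955), which was −0.055 without control 2 and −0.19 without control 1. The ratio of *Commd1* to *Zrsr1* came to 2.87 and 3.37 in control mice, against 4.12, 4.91 and 4.16 in cKO mice. The ratio differed by 0.49 on the log2 scale, with an exact permutation p of 0.1, the smallest possible, and an adjusted p of 0.35 over the 7 ratios. The groups overlapped for the other 4 ratios, with log2 differences of 0.08 for *Ube3a* to *Snrpn*, 0.24 for *Copg2* to *Mest*, 0.17 for *Trappc9* to *Peg13* and −0.09 for *Nnat* to *Blcap*. Their exact permutation p-values were 0.6, 0.3, 0.4 and 0.6. The annotation gives 203 exonic nt shared by *Commd1* and *Zrsr1* on opposite strands. It also places 2449 of the 8388 exonic nt of *Commd1* in *B3gnt2* on the same strand, so fragments there could be counted for either gene. *B3gnt2*, a glycosyltransferase gene, measured 12.99 and 14.3 FPKM in control mice, against 17.5, 14.4 and 14.2 in cKO mice.

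**Figure D3:**
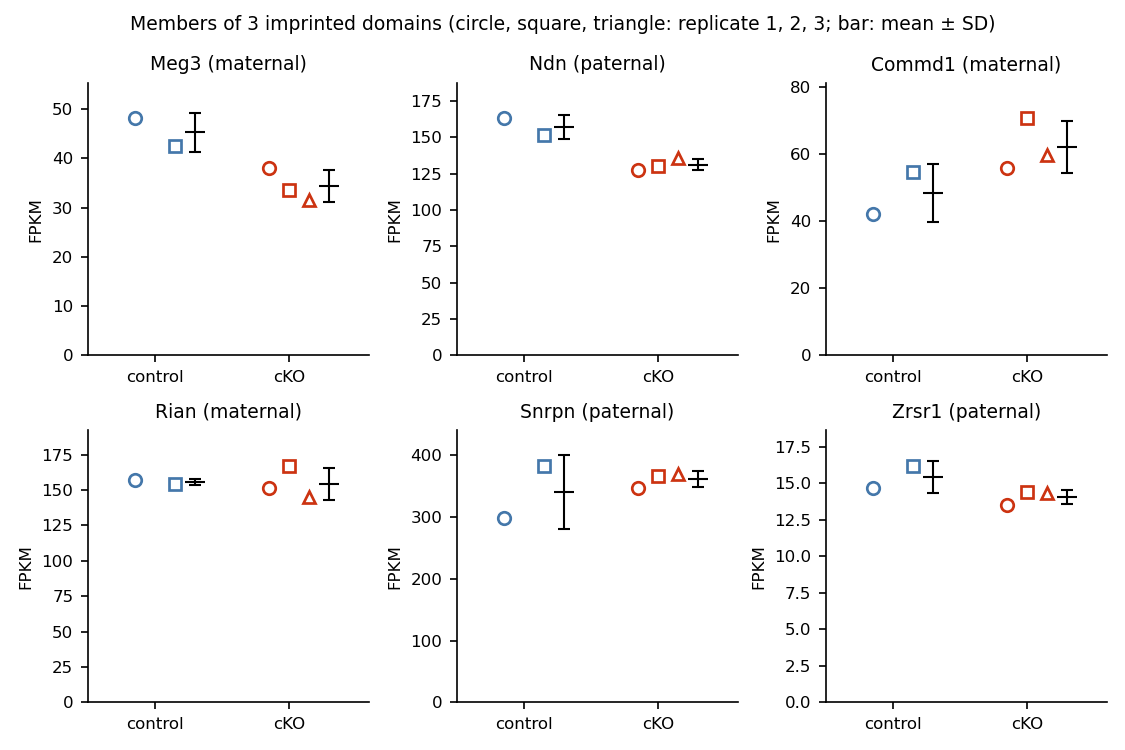
FPKM of *Meg3* above *Rian*, *Ndn* above *Snrpn* and *Commd1* above *Zrsr1* in each library, with marker shape for the replicate number and the mean ± SD beside the points. *Meg3* and *Ndn* lie lower and *Commd1* higher in all 3 cKO libraries, while *Rian* and *Snrpn* overlap between the groups.

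The promoters of the 3 members under an unadjusted p of 0.05, and of the gene nested in *Commd1*, are shown for their content of CpG, the dinucleotide at which DNA methylation marks imprinted control regions. The windows are from RefSeq on GRCm38.p6 and run from upstream to just past a start site, read 5′ to 3′ on the strand of the gene. They are *Meg3* (chr12:109540746-109541045, plus strand), *Ndn* (chr7:62348027-62348326, plus strand), *Commd1* (chr11:22982235-22982534, minus strand) and *Zrsr1* (chr11:22971755-22972054, plus strand). Capitals mark each CG.

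Meg3: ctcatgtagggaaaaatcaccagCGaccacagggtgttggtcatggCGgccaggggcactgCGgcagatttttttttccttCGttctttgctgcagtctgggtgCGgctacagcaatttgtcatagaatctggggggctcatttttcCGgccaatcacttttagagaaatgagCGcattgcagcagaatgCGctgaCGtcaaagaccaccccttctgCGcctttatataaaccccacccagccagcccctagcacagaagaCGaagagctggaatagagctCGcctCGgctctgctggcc

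Ndn: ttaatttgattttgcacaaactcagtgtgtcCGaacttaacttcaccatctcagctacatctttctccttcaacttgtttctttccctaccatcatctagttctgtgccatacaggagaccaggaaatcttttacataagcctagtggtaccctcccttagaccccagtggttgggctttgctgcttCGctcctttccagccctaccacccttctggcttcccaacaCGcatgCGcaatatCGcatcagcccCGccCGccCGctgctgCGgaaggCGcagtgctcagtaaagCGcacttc

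Commd1: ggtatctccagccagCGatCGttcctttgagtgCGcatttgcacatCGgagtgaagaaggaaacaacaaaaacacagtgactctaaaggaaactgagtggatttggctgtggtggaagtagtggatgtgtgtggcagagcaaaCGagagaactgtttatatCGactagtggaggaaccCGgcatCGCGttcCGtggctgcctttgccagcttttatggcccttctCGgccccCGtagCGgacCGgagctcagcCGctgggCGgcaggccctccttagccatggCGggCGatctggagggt

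Zrsr1: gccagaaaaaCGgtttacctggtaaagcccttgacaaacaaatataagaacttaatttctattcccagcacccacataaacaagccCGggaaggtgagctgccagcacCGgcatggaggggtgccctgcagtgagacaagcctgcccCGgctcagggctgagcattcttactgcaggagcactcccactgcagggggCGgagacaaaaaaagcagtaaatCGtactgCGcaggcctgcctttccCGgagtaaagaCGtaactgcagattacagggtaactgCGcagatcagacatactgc

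These windows hold 13 CG in *Meg3*, 11 in *Ndn*, 18 in *Commd1* and 10 in *Zrsr1*. Of all 32851 promoter windows of this length, 37.9%, 41.4%, 29.7% and 43.5% hold at least as many. *Meg3* and *Commd1* each have a second window, not printed, at chr12:109545148-109545447 with 1 CG and at chr11:22972817-22973116 with 17 CG, and the hexamer described next is in neither. The windows used cover 32 of the 40 genes with 46 windows. No window was matched for *H19*, *Rtl1*, *Peg10*, *Sgce*, *Peg13*, *Trappc9* and *Kcnk9*. Windows of listed genes on chromosome 18 were not used, which leaves out *Impact*, while the set of all windows was not filtered by chromosome. The 46 windows had a median of 14 CG, against 7 over all windows, and ranged from 0 in *Rian* to 45 in *Grb10*. The hexamer TGCCGC, which ZFP57 binds when its CG is methylated, was searched on both strands. It was present in 12 of the 46 windows (26.1%), against 11.6% of all windows, and among the windows shown it was in those of *Meg3* and *Commd1*. The hexamer itself holds a CG, and these shares were not matched for CG content, which is higher in the 46 windows. Some windows of a gene also overlap. The *Mest* windows at chr6:30737800-30738099 and chr6:30737803-30738102 both hold the hexamer and were both counted. A match is a stretch of letters and not a bound site.

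In the other clusters the groups overlapped for every tested member except *Nnat*. In the *Peg3* cluster, *Peg3*, a zinc finger gene of maternal behaviour and growth, measured 18.8 and 24.8 FPKM in control mice, against 18.5, 25.6 and 20.8 in cKO mice. *Usp29*, its divergent neighbour, measured 3.01 and 3.93 FPKM in control mice, against 3.25, 3.44 and 2.92 in cKO mice. Both genes overlapped between the groups. In the *Mest* cluster, *Mest*, a hydrolase-fold gene of growth control, measured 8.07 and 9.50 FPKM in control mice, against 9.09, 8.18 and 8.69 in cKO mice. *Copg2*, a coatomer subunit gene that runs into *Mest* from the opposite strand, measured 29.4 and 38.8 FPKM in control mice, against 35.5, 42.9 and 40.5 in cKO mice. They share 904 exonic nt, and strand use in counting was not given in the sources used here. *Copg2* overlapped between the groups, with a log2 fold change of 0.22.

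In the *Peg13* cluster on chromosome 15, the paternal non-coding RNA *Peg13* measured 38.2 and 35.0 FPKM in control mice, against 36.1, 28.4 and 30.6 in cKO mice. Its cKO values were lower except for cKO 1, which lay between the controls. *Trappc9*, the vesicle tethering gene in which *Peg13* lies, measured 19.8 and 22.6 FPKM in control mice, against 21.5, 20.0 and 20.3 in cKO mice. *Kcnk9*, the maternally expressed potassium channel TASK3, measured 4.39 and 4.71 FPKM in control mice, against 4.12, 6.24 and 3.82 in cKO mice. Both overlapped between the groups. *Nnat* measured 316 and 309 FPKM in control mice, against 298, 281 and 292 in cKO mice. Every cKO library lay under both controls, by a log2 fold change of −0.11 (SE 0.09, limma adjusted p = 0.955). *Blcap*, the gene that hosts *Nnat* in an intron, measured 37.3 and 33.6 FPKM in control mice, against 37.7, 28.7 and 39.1 in cKO mice, and its groups overlapped.

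In the *Peg10* cluster *Sgce*, the epsilon-sarcoglycan gene of myoclonus dystonia, measured 12.3 and 14.9 FPKM in control mice, against 14.0, 16.9 and 16.1 in cKO mice. *Peg10*, derived from a retrotransposon, measured 2.05 and 1.89 FPKM in control mice, against 1.58, 2.07 and 2.41 in cKO mice. In the *Grb10* cluster *Grb10*, an adaptor that restrains insulin receptor signalling, measured 4.83 and 5.78 FPKM in control mice, against 3.89, 5.41 and 5.20 in cKO mice. All 3 overlapped between the groups. *Ddc*, which makes dopamine and serotonin, measured 3.06 and 3.07 FPKM in control mice, against 2.02, 2.43 and 3.07 in cKO mice. Only cKO 1 and cKO 2 lay under the controls. *Airn*, a paternal antisense RNA of chromosome 17, measured 1.71 and 0.139 FPKM in control mice, against 1.94, 0.765 and 1.39 in cKO mice. The 2 controls of *Airn* differed more than the group means, and its log2 fold change was 1.02 without control 1 and −0.23 without control 2. The remaining genes overlapped between the groups. They were *Gnas*, *Nap1l5* (a nucleosome assembly relative), *Impact* (a regulator of the stress kinase GCN2), *Rasgrf1* (a Ras exchange factor of synaptic plasticity), *Inpp5f* (a phosphoinositide phosphatase) and *Plagl1* (a zinc finger gene of growth arrest), with log2 fold changes from −0.11 for *Nap1l5* (−0.031 without control 2 and −0.21 without cKO 2) to −0.01 for *Inpp5f*.

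Over all 29 genes, 20 had a log2 fold change below 0 (69%, against 46.3% of all tested genes). That count was 15 without control 2 and 15 without cKO 1, and 22 at a common total. The 46.3% is from the fit with every library and no rescaling. The common total also moved the median of all tested genes from 0.01 to −0.04. Both sets of libraries gave a value below 0 for 14 of the 29 (48.3%, against 29.1% of all tested genes). The groups did not overlap for 7 of the 29 genes (24.1%, against 20.4% of all genes). Of these, *Commd1* and *Ube3a* were higher in *Hdac1* cKO (2 of 29, against 11% of all genes). *Meg3*, *Ndn*, *Nnat*, *Zrsr1* and *Dio3* were lower (5 of 29, against 9.41%). The median log2 fold change of the 29 genes was −0.03, against 0.01 over all tested genes, and the median of the members had a spread between libraries of 0.070 (SD). The median of the members was −0.06 within the first set and −0.10 within the second, where that of all tested genes was 0.0081 and −0.00076. The median of the members was −0.12 without control 1, −0.084 without cKO 2, −0.0085 without control 2 and −0.00082 without cKO 1. At a common total it was −0.092, where that of all tested genes was −0.04.

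By expressed allele, 12 of 16 tested paternally expressed genes (75%) were lower in *Hdac1* cKO and 4 were higher, with a median of −0.07. Of 8 maternally expressed genes, 5 were higher and 3 lower (37.5%), with a median of 0.09. Of all tested genes 46.3% were lower, with a median of 0.01. Both sets of libraries gave a value below 0 for 9 of 16 paternal, 1 of 8 maternal and 4 of the other 5 genes. These shares were 56.2%, 12.5% and 80%, against 29.1% of all tested genes. The 5 genes with a tissue- or isoform-dependent allele all had a log2 fold change below 0, with a median of −0.08 and values from −0.22 for *Ddc* (−0.43 and −0.12 within the sets, −0.12 without cKO 1) to −0.01 for *Inpp5f*. Of these 5, 3 were below 0 without control 2 and without cKO 1, and 4 with the set block, without control 1 and without cKO 2. The medians of the paternal and maternal classes had spreads between libraries of 0.071 and 0.091 (SD). The paternal median was −0.06 and −0.12 within the sets of libraries, and the maternal median was 0.08 in both. The paternal median was −0.16 without control 1, −0.12 without cKO 2, −0.026 without control 2, −0.049 without cKO 1 and −0.12 at a common total. The maternal median was 0.013 without control 1, 0.035 without cKO 2, 0.17 without cKO 3 and 0.033 at a common total. At that common total the median of all tested genes was −0.04. The maternal class holds both the highest value but 1 (*Commd1*) and the lowest (*Meg3*), and its members did not share a direction. After rescaling to a common total *Peg10* and *Kcnk9* turned from above to below 0, so that 13 of 16 paternal and 4 of 8 maternal genes were below 0. Without control 2, and likewise without cKO 1, 9 of 16 paternal and 3 of 8 maternal genes were below 0. The difference between the classes was not tested. Within a cluster both signs occurred, as for *Ndn* against *Ube3a* and *Zrsr1* against *Commd1*. They also occurred within the same allele of a cluster. Examples are paternal *Ndn* (−0.26) against *Snrpn* (0.09) and maternal *Meg3* (−0.39) against *Mirg* (0.26). *Snrpn* turned to −0.086 without control 1, and *Mirg* to −0.057 without control 2.

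**Figure D4:**
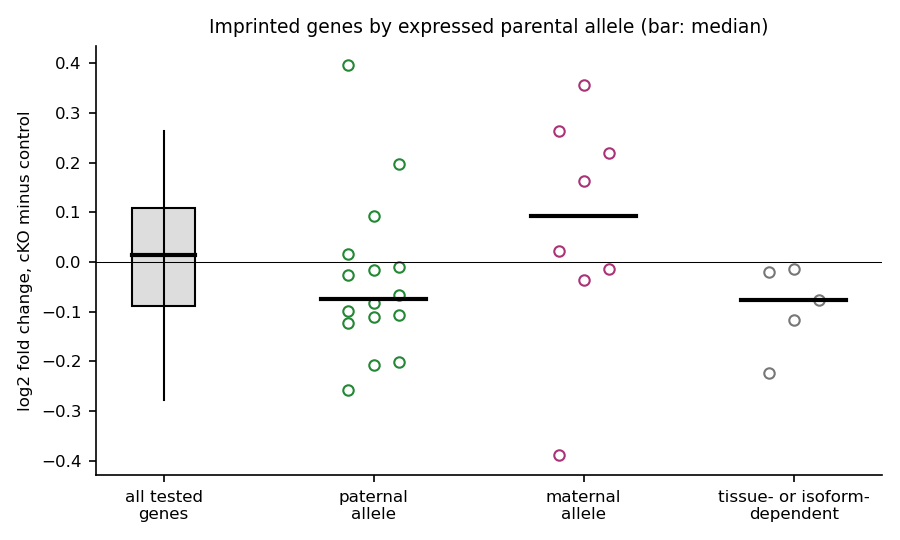
Log2 fold change (cKO minus control) of the tested imprinted genes by expressed parental allele, one circle per gene with a bar at the median. All tested genes are given as a box with the median at 0.01, quartiles at −0.09 and 0.11 and a line from percentile 5 (−0.28) to percentile 95 (0.26), and the imprinted genes other than *Airn*, *Commd1* and *Meg3* lie inside that line.

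Without a block no cell type marker passed an adjusted limma p of 0.05. Of 11 neuron markers 10 were lower in *Hdac1* cKO, against 46.3% of all tested genes, with a median log2 fold change of −0.14. That median was −0.09 within the first set and −0.17 within the second. *Nefm* and *Stmn2* had an unadjusted limma p under 0.05, as 4.36% of all genes did, with an adjusted p of 0.955 each. The sum over neuron markers ranged from 2069 to 2225 FPKM in control and from 1975 to 2128 FPKM in cKO mice, which overlap, and none of the markers was at 0. The sum over 9 astrocyte markers ranged from 2679 to 2703 FPKM in control and from 2919 to 3082 FPKM in cKO mice, which do not overlap. Of these markers 6 were higher, with a median log2 fold change of 0.20 (0.19 within each set). The groups did not overlap for 6 of the 9 astrocyte (66.7%) and 4 of the 11 neuron markers (36.4%), against 20.4% of all genes. *Aqp4* (limma adjusted p = 0.175, and 0.0187 with the set block) and *Gfap* (limma adjusted p = 0.955) had an unadjusted p under 0.05. Of the other lists, 6 of 7 oligodendrocyte, 4 of 7 microglia, 3 of 6 endothelium and 7 of 7 tested leptomeninges markers were higher. Their medians were 0.11, 0.04, −0.04 and 0.17. Within the first set these medians were −0.0067, 0.018, −0.13 and 0.23, and within the second 0.23, −0.083, 0.11 and 0.29. Those of oligodendrocytes, microglia and endothelium thus differed in sign between the sets. With the replicate block the medians were −0.030, 0.016, −0.24 and 0.13. *Ogn* of the leptomeninges list had an unadjusted limma p under 0.05 and an adjusted p of 0.955. The 4 tested choroid plexus, 6 hippocampal excitatory neuron and 4 tested thalamus markers had medians of 0.29, −0.06 and −0.09. Within the first set these were −0.23, 0.016 and −0.12, and within the second 0.63, −0.15 and −0.22. The choroid plexus and hippocampal medians thus differed in sign between the sets. Of the hypothalamus markers, 0 of 7 reached the level for testing. The hippocampal markers were detected in every library, with sums of 158 to 199 FPKM in control and 174 to 179.6 FPKM in cKO mice. *Meg3*, *Ndn*, *Nnat* and *Ube3a* are expressed in neurons, and the part of tissue composition in their values was not tested.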

How the data were processed

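RNA-seq of hippocampus was measured in 2 control and 3 *Hdac1* cKO mice, grouped by the sample titles. The authors deposited FPKM, obtained per library with TopHat, Bowtie and Cufflinks 2.0.0 on mm9. Strand use in counting is not given in the sources used here. Values were compared as log2(FPKM + 1) by limma 3.58.1 in R 4.3.3 (lmFit, eBayes with trend, genotype as the only term, two-sided) over the 12740 of 23361 genes whose mean FPKM reached 1, with Benjamini-Hochberg adjustment over all of them. The code was tested on simulated data. The list of 40 genes, the marker lists and the tests were chosen with earlier results of these data known, and the parental allele of each gene was assigned from textbook knowledge. Full statistics were set to be given for members under an unadjusted p of 0.05, or with groups that do not overlap and an absolute log2 fold change of at least 0.2 (*Meg3*, *Ndn*, *Commd1*, *Dio3*). Statistics of other members, and the 7 within-cluster ratios (two-sided exact permutation test), were added after their values were seen.

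Coordinates are from GENCODE vM1 on NCBIM37, the build of mm9, which matched 38 of the 40 symbols (not *Kcnq1ot1* and *Peg13*). Depth was estimated from the commonest value of FPKM times length in low genes with a single transcript, from 30 to 77 genes per library, and is approximate. Low-gene ratios between libraries, in windows of 0.05 log2 units, gave the 2 sets (24.6% to 28.4% of genes in the fullest window within a set, 3.71% to 4.64% across sets). Nothing says how the mice relate, so p-values measure the spread between these libraries. Alternatives were a pseudocount of 0.1, no filter or a minimum mean of 5 FPKM, median-ratio size factors, a common total, the replicate or set block, and leaving out each library.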

Additional observations from a re-analysis of the deposited data

How the results depend on the processing

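The replicate block also takes cKO 3, which has no numbered partner, out of the estimate, and its log2 fold changes equal those without cKO 3. Under it 5 members had an unadjusted limma p under 0.05 in place of 3, against 2 without cKO 3 and with no block. Those added were *Ube3a*, with a log2 fold change of 0.22, and *Copg2*, with 0.20. Over single libraries left out, without a block, *Ube3a* ran from 0.086 (without cKO 2) to 0.22 and *Copg2* from 0.026 (without control 1) to 0.41 (without control 2). In that fit *Rian* turned to 0.029, *Peg3* to 0.0097, *Plagl1* to 0.018 and *Peg10* to −0.075. Same-numbered libraries deviated together from their group means (r of 0.402 and 0.269 across genes, which are not independent). The deviations of the 2 controls mirror each other, so the 2 values of r are tied. As there are 2 pairs, each within a set, the numbers cannot be told apart from the sets. With the set block *Peg10* turned to −0.0096, *Blcap* to 0.0059 and *Kcnk9* to −0.0030. A common total per library (median of all genes −0.04 instead of 0.01) turned *Peg10* to −0.026 and *Kcnk9* to −0.032. Within the second set the median of all members was −0.10. The cause was not tested. The number of members under an adjusted limma p of 0.05 was 0 in every fit, while *Hdac1* was under it only with the replicate block (adjusted p = 0.0115) and the set block (adjusted p = 0.00389).

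Leaving out 1 library at a time, the median of all members went from −0.12 (without control 1) to −0.00082 (without cKO 1) and that of paternally expressed members from −0.16 to −0.026. That of maternally expressed members went from 0.013 (without control 1) to 0.17 (without cKO 3). Between 0 and 1 members passed the fold of 1.5 with an unadjusted p under 0.05, the 1 being *Airn* without control 1. The log2 fold change ranged from −0.073 to 0.029 for *Rian*, −0.057 to 0.58 for *Mirg*, −0.20 to 0.18 for *Peg3*, −0.23 to 0.067 for *Usp29*, −0.086 to 0.27 for *Snrpn*, −0.23 to 0.0051 for *Grb10*, −0.13 to 0.018 for *Plagl1*, −0.12 to 0.088 for *Mest*, −0.075 to 0.12 for *Peg10*, −0.23 to 0.030 for *Impact*, −0.10 to 0.12 for *Blcap*, −0.19 to 0.041 for *Gnas*, −0.23 to 1.02 for *Airn*, −0.087 to 0.060 for *Inpp5f*, −0.18 to 0.13 for *Rasgrf1*, −0.13 to 0.056 for *Trappc9* and −0.16 to 0.13 for *Kcnk9*. Members that kept their sign but moved by over 1.5 times from the fit with every library ranged from 0.17 to 0.54 for *Commd1*, 0.070 to 0.32 for *Sgce*, −0.34 to −0.12 for *Ddc*, −0.29 to −0.13 for *Dio3*, −0.21 to −0.031 for *Nap1l5*, −0.19 to −0.055 for *Zrsr1* and −0.30 to −0.13 for *Peg13*, besides *Ube3a* and *Copg2* above. The range was −0.48 to −0.30 for *Meg3* and −0.31 to −0.21 for *Ndn*. Without control 1 none of *Meg3*, *Ndn* and *Commd1* stayed under an unadjusted limma p of 0.05. At the estimated depth, genes near 1 FPKM rest on few fragments, which limits what they can show.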

Other observations

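A further 26 imprinted genes outside the list were looked up, of which 17 were tested and 0 passed an adjusted limma p of 0.05. Their median log2 fold change was −0.01 (7 higher, 10 lower). It was −0.11 within the first set of libraries, 0.014 within the second and −0.050 with the replicate block. An unadjusted limma p under 0.05 was reached by 2 of the 17 (11.8%, against 4.36% of all tested genes), and the groups did not overlap for 7 of them (41.2%, against 20.4%). *H13*, a signal peptide peptidase gene of an imprinted pair with *Mcts2*, measured 12.2 and 10.4 FPKM in control mice, against 8.47, 8.60 and 7.48 in cKO mice (log2 fold change −0.42, SE 0.12, unadjusted limma p of 0.00950, adjusted p = 0.955). *Pon2*, a paraoxonase gene near *Peg10*, measured 25.9 and 31.3 FPKM in control mice, against 41.3, 36.5 and 45.2 in cKO mice (log2 fold change 0.51, SE 0.13, unadjusted limma p of 0.00403, adjusted p = 0.955). Both are among the 7 genes without overlap, with *Chrac1*, *Cobl*, *Eif2c2*, *Herc3* and *Snurf*.

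Of 26 genes that write, read or erase the methylation and chromatin marks of imprints, 21 were tested and 0 passed the adjusted p. Their median was −0.03 (8 higher, 13 lower). It was −0.044 within the first set of libraries, −0.057 within the second and −8.17e-06 with the replicate block. An unadjusted limma p under 0.05 was reached by 1 of the 21 (4.76%, near the 4.36% of all tested genes). This was *Tdg*, a glycosylase of active demethylation (log2 fold change −0.76, limma adjusted p = 0.955), with 7.03 and 5.32 FPKM in control mice, against 2.58, 3.42 and 3.74 in cKO mice. *Tdg* has near-identical pseudogene copies, and its values are uncertain. *Dppa3*, a protector of maternal imprints in the egg, was listed at 0 in every library.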
